A study of Gossypium hirsutum with 24 samples.

Results

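Transcript levels were followed with bud size in the flower parts of upland cotton (Gossypium hirsutum) that remained after the anthers had been dissected out of the bud. These were 9 of the 24 arrays of the series, chosen by their label, with 3 arrays each from buds of 5, 7 and 8 mm. The other 15 arrays held anthers of the same 3 bud sizes, young leaf of plants 1 month old and whole seedlings 5 days after germination, with 3 arrays per group. All arrays were Affymetrix Cotton Genome arrays, 1 per RNA sample. The labels give no genotype or treatment for any group, do not say which organs were kept in the flower parts, and do not state how many buds or plants made up a sample. The replicates are described in the series as biological, and the p-values measure the spread between samples within groups, pooled over all 24 arrays. The design speaks of buds at pre-meiotic, meiotic and post-meiotic stages, but no label ties a bud size to one of them, so groups are named by size.

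A cotton flower bud carries an outer ring of leafy bracts, then the calyx, the petals, a column of fused filaments that bears the anthers, and the pistil with the ovary at its centre. The anthers make the pollen. In them the tapetum feeds the developing pollen cells and then degenerates, while the petals, filaments and pistil are organs that go on growing in the same bud. The labels do not say which of the other organs were kept with the anthers removed. A level here may be an average over several organs, and fewer cells of a type cannot be told apart from less RNA per cell.

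Values are GCRMA values on the log2 scale, where a difference of 1 is a doubling. A probe set, a group of probes for one transcript or a few related ones, was taken as above background where its value exceeded 2.23, the 95th percentile of the negative controls. On the 9 arrays, 64.5% to 65.3% of the 23977 probe sets left after removing controls were above background. Of these, 17666 could be tested, and 634 of these had a single gene symbol. Every symbol is a locus number without a product name, so no function is given for any gene below. A call between sizes needed an adjusted p under 0.05 in limma, with Benjamini-Hochberg adjustment over all 17666, and a log2 difference of at least 1 in either direction.

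The flower parts arrays did not separate first by bud size. The first principal component of the 9 arrays held 36.7% of the variance and set 5 mm replicate 2 apart. The next held 31.4% and set 7 mm replicate 3 apart. Only the third component, with 15.1%, placed 5 mm replicates 3 and 4 at one end and the 3 arrays of 8 mm buds towards the other, and 5 mm replicate 2 lay among the 7 mm arrays on it. On 5 mm replicate 2, 543 probe sets lay at least 2 log2 units below both other 5 mm arrays and 20 lay that far above them. On 7 mm replicate 3 these numbers were 639 and 8, and on 8 mm replicate 6 they were 152 and 10. Array 5 mm replicate 2 correlated best with 8 mm replicate 6 (r = 0.973 across probe sets) and 7 mm replicate 3 with 5 mm replicate 3 (r = 0.962), and 8 mm replicate 6 with 7 mm replicate 1 (r = 0.985), so none of the 3 was closest to its own size. Pairs of arrays of the same size had a median r of 0.983 (n = 9 pairs) and pairs of different sizes 0.978 (n = 27 pairs). Differences between sizes made up 31.0% of the sum of squares in flower parts and 70.2% in anthers. Group means of 3 arrays differ somewhat even where size has no effect, so neither share is wholly due to bud size. The level of the hybridisation spike-ins did not separate the sizes (exact permutation test, two-sided p = 0.6, 0.5 and 0.9 for 5 against 7, 7 against 8 and 5 against 8 mm, where 0.1 is the smallest p that 3 against 3 arrays allow).

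**Figure D1:**
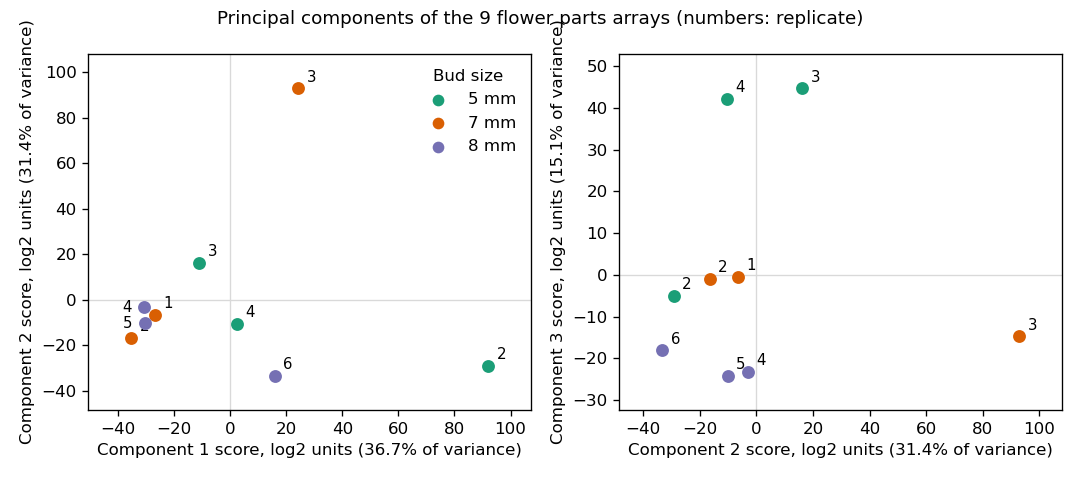
Scores of the 9 flower parts arrays on principal components 1 and 2 (left) and 2 and 3 (right), in log2 units, coloured by bud size and numbered by replicate. Array 5 mm replicate 2 lies alone on the first component and 7 mm replicate 3 alone on the second, and 5 mm replicates 3 and 4 lie apart from the other arrays on the third.

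The levels of tissue lists were read in the flower parts. Those with members were set by anther, leaf and seedling arrays alone, so they do not test how complete the dissection was. Of the product-name lists prepared for pollen, photosynthesis, growth and other processes, none found a member, because no product names were given. A list of 257 probe sets that were higher in leaf and seedling than in all anthers by at least 4 log2 units had medians of 6.41 to 7.18 on the flower parts arrays, between those of anthers (2.96 to 3.45) and those of leaf and seedling (10.6 to 10.9). They were 6.46 to 6.85 in 5 mm, 6.81 to 7.18 in 7 mm and 6.41 to 6.76 in 8 mm flower parts, so 5 mm overlapped both other sizes, whereas every 7 mm array lay above every 8 mm array. A list of 45 probe sets higher in anthers than in leaf and seedling stood at medians of 7.99 to 8.68 in flower parts, below the 9.43 to 10.1 of anthers and above the 2.54 to 2.97 of leaf and seedling, without overlap. From 5 to 8 mm, 2 of the 45 rose and 4 fell in flower parts, against 0.906% and 0.651% of all tested.

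Transcripts that appear late in anthers were examined as well, in a list added after the data had been seen. It held 23 probe sets at least 4 log2 units higher on every 8 mm anther array than on any array of 5 mm anthers, leaf or seedling. Its median was 9.44 to 10.7 in 8 mm anthers, against 2.44 to 3.08 in 5 mm, 2.55 to 3.22 in 7 mm and 3.79 to 4.35 in 8 mm flower parts. The 8 mm flower parts thus lay above the smaller sizes, without overlap, and far below the anthers. Between 14 and 18 of the 23 were above background on flower parts arrays, over all sizes. On the sum of linear values the list gave 10.3 to 11.5 in 5 mm and 10.7 to 11.2 in 8 mm flower parts (log2 of the sum), which overlap. In the 5 to 8 mm comparison 2 of the 23 (8.70%) rose and none fell, against 0.906% and 0.651% of all tested, with a median log2 difference of 0.09 against 0.00 over all tested. One of the 2, probe set GhiAffx.32086.1.S1_at, is singled out after its values were seen. It read 2.34, 2.24 and 2.36 in 5 mm and 2.66, 2.39 and 3.22 in 7 mm flower parts, then 7.98, 7.95 and 8.45 in 8 mm flower parts. In 8 mm anthers it read 14.13, 14.31 and 13.76. The rise in flower parts was 5.82 log2 units (SE 1.55, adjusted p = 0.0468), and the part of anther tissue in it was not tested. The list also read 9.71 on 7 mm anther replicate 3, against 4.70 and 5.19 on the other 7 mm anther arrays. A like list of 17 probe sets that were already high in 7 mm anthers had 1 member that rose from 7 to 8 mm and from 5 to 8 mm in flower parts, and none that fell. That member, Ghi.8528.1.A1_s_at, is the other of the 2 that rose in the list of 23, so the lists share members and this is not a further case. Of all tested, 0.0736% and 0.906% rose in these comparisons.

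**Figure D2:**
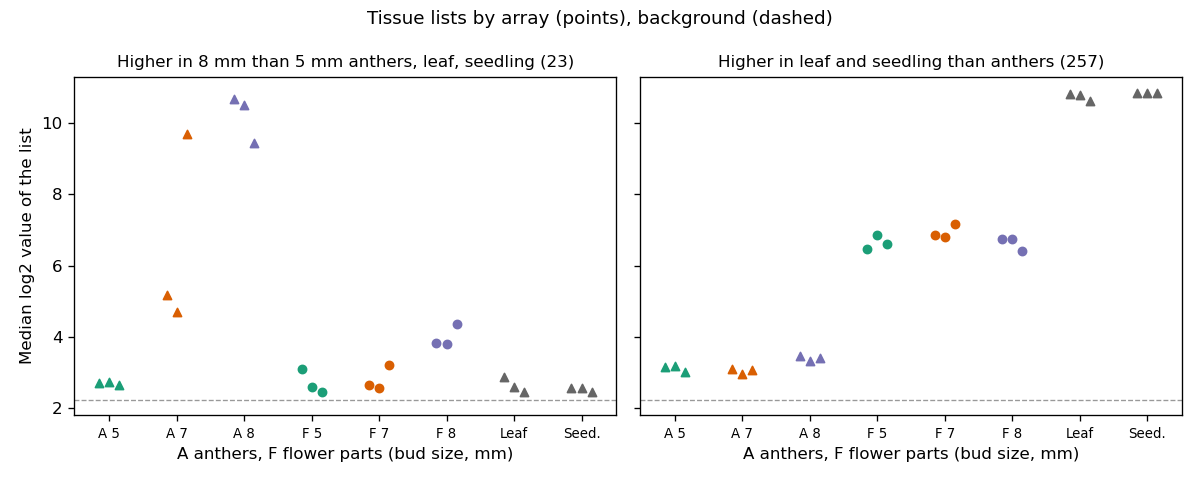
Median log2 value per array of the 23 probe sets high in 8 mm anthers (left) and the 257 high in leaf and seedling (right), with 3 arrays per group, circles for flower parts, triangles for other tissues and the background level dashed. On the left the 8 mm flower parts lie at 3.79 to 4.35, above the other flower parts and below the 8 mm anthers at 9.44 to 10.7. By group means the middle member in 8 mm flower parts, at 3.81, was already at 3.70 in 5 mm flower parts.

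Few probe sets changed with bud size in the flower parts. From 5 to 7 mm, 129 rose and 41 fell, which is 0.962% of those tested (0.73% and 0.232% by direction). With the arrays scaled to the spike-ins, this split was 57 and 2. From 7 to 8 mm, 13 rose and 31 fell, or 0.249% (0.0736% and 0.175%), and with spike-in scaling 4 rose and 32 fell. Over the whole interval from 5 to 8 mm, 160 rose and 115 fell, or 1.56% (0.906% and 0.651%). At an unadjusted p under 0.05 the numbers were 2808, 1344 and 2900. A moderated F test for any difference among the 3 sizes found 578 probe sets, or 3.27%, at an adjusted p under 0.05. Of these, 267 (46.2%) had their highest mean at 5 mm, 158 (27.3%) at 7 mm and 153 (26.5%) at 8 mm. The shares of all tested were close to these, at 42.5%, 29.7% and 27.8%. The means of the 578 rose at both steps in 144 (24.9%) and fell at both in 175 (30.3%). Another 158 peaked at 7 mm and 101 (17.5%) were lowest there. Among all tested probe sets 14.8% rose at both steps and 20.0% fell at both, whereas 29.4% peaked and 29.9% were lowest at 7 mm.

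The rises were the larger changes in the first step. From 5 to 7 mm, 42 of the 129 rises and 3 of the 41 falls reached 2 log2 units. From 7 to 8 mm the falls were the larger ones, with 19 of the 31 falls but only 2 of the 13 rises reaching 2 log2 units, and 11 falls reaching 3. From 5 to 8 mm, 63 of 160 rises and 14 of 115 falls reached 2 log2 units.

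These counts lean on the spread that all 24 arrays share. The median standard deviation within a group was 0.233 in 5 mm, 0.257 in 7 mm and 0.143 in 8 mm flower parts. In anthers, leaf and seedling it was 0.097 to 0.217, so the shared spread can be too small for 5 and 7 mm flower parts. When the 9 flower parts arrays were fitted alone, 8 rose and 1 fell from 5 to 7 mm, 1 rose and 2 fell from 7 to 8 mm, and 18 rose and 7 fell from 5 to 8 mm, with 8, 1 and 24 of these also among the 170, 44 and 275 calls. Of the 40 calls that the rule for named genes picked in flower parts, 4 held in that fit and 36 did not (adjusted p = 0.061 to 0.906), and the adjusted p-values below come from all 24 arrays unless the 9 arrays are named. Single arrays also moved the counts. From 5 to 7 mm, 403 probe sets were called without 5 mm replicate 3, of which 322 rose and 81 fell. The split was 93 and 83 without 7 mm replicate 1, and 103 and 62 without 7 mm replicate 2. From 7 to 8 mm, 28 were called without 7 mm replicate 2, 21 without 8 mm replicate 4 and 15 without 8 mm replicate 5. From 5 to 8 mm, 434 were called without 5 mm replicate 2 (218 rises and 216 falls), 116 without 8 mm replicate 4, 110 without 8 mm replicate 5 and 490 without 8 mm replicate 6. Calls that held whichever array of the compared sizes was left out numbered 61 of 170 (51 rises and 10 falls), 13 of 44 (5 and 8) and 94 of 275 (69 and 25). With the 3 arrays that stood apart all left out, 319, 85 and 669 probe sets were called, 103, 33 and 251 of them shared with the calls above.

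**Figure D3:**
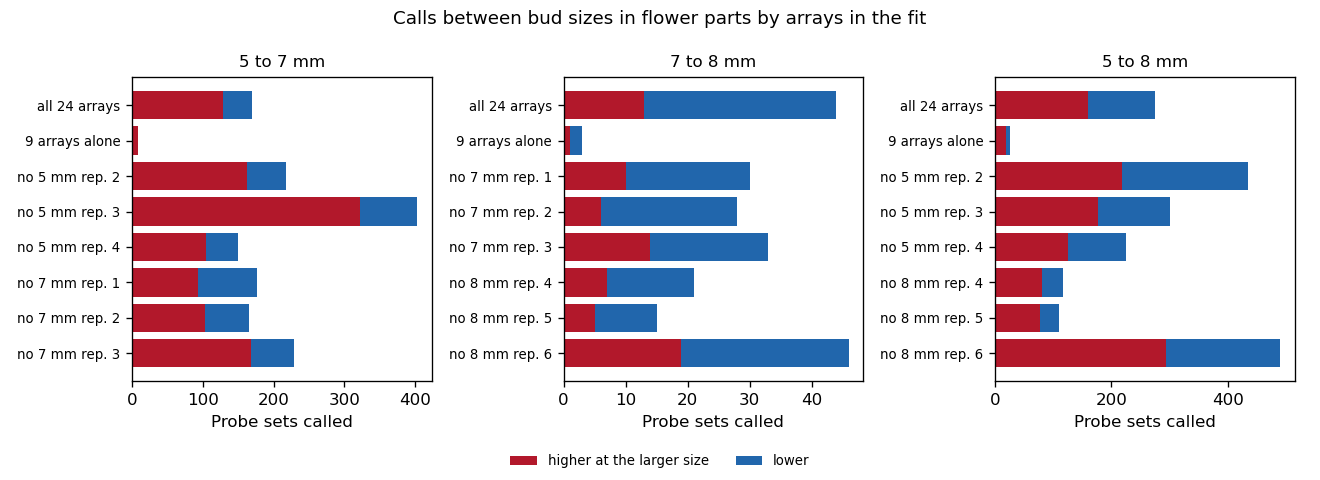
Number of probe sets called between bud sizes in flower parts, higher (red) or lower (blue) at the larger size, with all 24 arrays, with the 9 flower parts arrays alone, and without each array of the compared sizes. The 5 to 8 mm count runs from 110 to 490 as single arrays are left out and is 25 with the 9 arrays alone.

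The clearest rise across both steps was that of LOC107914052. It read 4.47, 3.20 and 2.80 in 5 mm flower parts, 6.23, 6.09 and 6.61 in 7 mm and 8.32, 7.90 and 8.02 in 8 mm. No array of one size overlapped another size, but the rule for named genes took only calls without overlap. Of all tested, 12.6% did not overlap between 5 and 7 mm, 11.4% between 7 and 8 mm and 19.5% between 5 and 8 mm. It rose by 2.82 log2 units from 5 to 7 mm (SE 0.26, adjusted p = 2.59e-05), by 1.77 from 7 to 8 mm (adjusted p = 0.00448) and by 4.59, or 24.1-fold, from 5 to 8 mm (adjusted p = 1.61e-08). Anthers, leaf and seedling all read between 2.27 and 2.43, near background, below every flower parts array. With the 9 arrays alone the 5 to 8 mm rise kept its call (adjusted p = 0.0178) and the single steps did not (adjusted p = 0.0994 and 0.774).

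LOC107950111 was above background in flower parts alone on these 24 arrays, was higher at 7 than at 5 mm and differed little between 7 and 8 mm. It read 4.05, 2.16 and 2.16 in 5 mm, 5.46, 5.08 and 5.24 in 7 mm and 4.93, 5.38 and 5.45 in 8 mm flower parts. The value 2.16 is the lowest in the whole table and stood on every anther, leaf and seedling array. Only 5 mm replicate 2 showed it at the small size. The log2 difference was 2.47 from 5 to 7 mm (SE 0.32, adjusted p = 0.000479), 2.46 from 5 to 8 mm (adjusted p = 0.000191) and -0.01 from 7 to 8 mm (adjusted p = 1). The anther, leaf and seedling arrays, all at 2.16, add no variation to the shared spread, which lowers the SE. With the 9 arrays alone neither rise kept its call (adjusted p = 0.213 from 5 to 7 mm and 0.137 from 5 to 8 mm).

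Probe set Ghi.8757.1.A1_s_at, which has no symbol, was measured above background only in 7 and 8 mm flower parts. It read 2.16, 2.16 and 2.17 in 5 mm, 3.56, 3.87 and 5.57 in 7 mm and 6.84, 6.59 and 6.75 in 8 mm flower parts, and 2.16 on all other arrays. Against the background level it was at least 4.28-fold higher at 7 mm and at least 22.5-fold higher at 8 mm than at 5 mm, and it rose by 2.39 log2 units from 7 to 8 mm (SE 0.30, adjusted p = 0.000905). Here too the arrays at 2.16 add no variation to the shared spread. With the 9 arrays alone the 7 to 8 mm rise lost its call (adjusted p = 0.64). All 3 of these probe sets read at most 2.43 on every anther array.

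**Figure D4:**
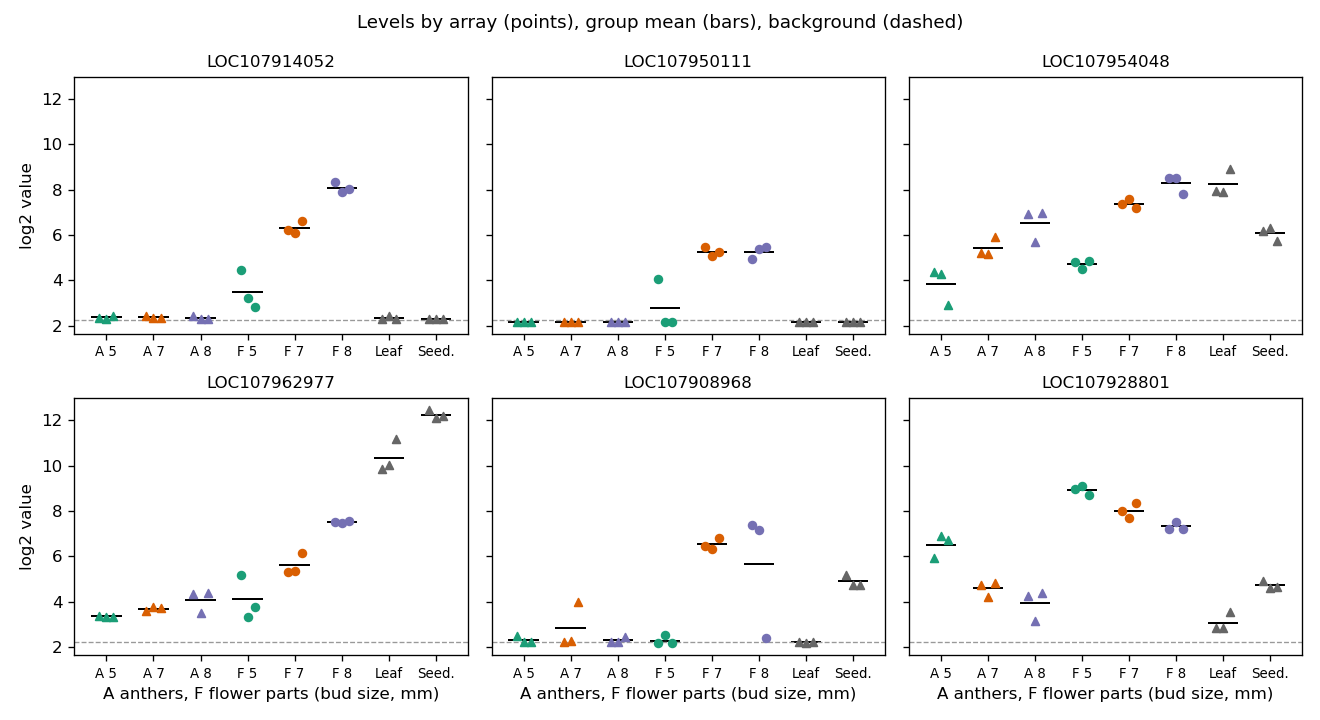
Log2 value on every array for 6 genes, in anthers (A) and flower parts (F) of 5, 7 and 8 mm buds, leaf and seedling. Points are arrays (circles for flower parts, triangles for other tissues), bars are group means (n = 3) and the dashed line is background at 2.23. LOC107914052 and LOC107950111 rise above 5 only in 7 and 8 mm flower parts, and LOC107908968 is at 2.38 on 8 mm replicate 6 while the other 8 mm flower parts arrays are above 7.

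LOC107954048 rose in flower parts and also in anthers. Its flower parts read 4.82, 4.48 and 4.85 at 5 mm, 7.38, 7.59 and 7.18 at 7 mm, then 8.52, 8.52 and 7.80 at 8 mm. The rise was 2.67 from 5 to 7 mm (SE 0.39, adjusted p = 0.00188) and 3.56, or 11.8-fold, from 5 to 8 mm (adjusted p = 4.09e-05), while 7 to 8 mm gave 0.89 (adjusted p = 0.607). Both rises kept their calls with the 9 arrays alone (adjusted p = 0.0287 and 0.00641). In anthers it rose by 2.66 over the same interval (adjusted p = 5.72e-05), and the difference between the tissues of -0.90 did not pass (adjusted p = 0.302).

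LOC107962977 and LOC107927831 moved towards the level of leaf and seedling. LOC107962977 read 5.18, 3.34 and 3.76 at 5 mm, 5.32, 5.33 and 6.12 at 7 mm, then 7.50, 7.46 and 7.56 at 8 mm, a rise of 3.41 over the interval (SE 0.39, adjusted p = 5.70e-05). Seedlings read 12.08 to 12.44 and leaf 9.85 to 11.17. Its 7 to 8 mm rise of 1.91 (adjusted p = 0.0352) lost its call without any of 5 of the 6 arrays compared, that is all but 7 mm replicate 3 (log2 difference 1.78 to 1.94, adjusted p = 0.0939 to 0.143). LOC107927831 read 5.64, 4.36 and 4.70 at 5 mm, 5.34, 5.57 and 5.28 at 7 mm, then 6.76, 6.72 and 7.56 at 8 mm. It rose by 2.11 from 5 to 8 mm (SE 0.31, adjusted p = 0.000858), and its 7 to 8 mm rise of 1.61 (adjusted p = 0.0285) was lost without any 1 of the 6 arrays (log2 difference 1.34 to 1.76, adjusted p = 0.0584 to 0.116). Both genes are read by probe sets that may bind related transcripts. The same holds for LOC107914052, LOC107950111 and LOC107954048 above. It also holds below for LOC107938326, LOC107941658, LOC107900642, LOC107887176, LOC107928801, LOC107954320 and LOC107945007.

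LOC107938326 and LOC107941658 were also far higher in leaf and seedling than in anthers and rose in flower parts. LOC107938326 read 8.54, 6.96 and 7.45 at 5 mm, 9.42, 9.57 and 9.41 at 7 mm, then 9.92, 9.98 and 9.99 at 8 mm. Its 5 to 8 mm rise was 2.32 (SE 0.31, adjusted p = 0.000281) and its 5 to 7 mm rise 1.82 (adjusted p = 0.00472). LOC107941658 read 7.29, 5.79 and 5.83, then 8.24, 8.14 and 8.26, then 9.07, 8.80 and 8.84, a rise of 2.60 (SE 0.37, adjusted p = 0.000545). Leaf and seedling lay at 11.26 to 11.73 for this gene. Both genes also rose in anthers from 5 to 8 mm, LOC107938326 by 1.74 (adjusted p = 0.000346) and LOC107941658 by 1.59 (adjusted p = 0.00298), and the difference between the tissues passed for neither (adjusted p = 0.416 and 0.213). In both, 5 mm replicate 2 was the highest 5 mm flower parts array and lay nearest to the larger buds. Of the 257 probe sets of the vegetative list, 19 (7.39%) rose and 6 fell from 5 to 8 mm, against 0.906% and 0.651% of all tested, with a median log2 difference of -0.23 against 0.00 over all tested.

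LOC107953769, LOC107900642 and the first probe set of LOC107887176 rose mainly in the first step. LOC107953769 read 5.33, 3.18 and 3.30, then 6.06, 6.00 and 7.05, then 7.25, 7.48 and 6.97, a rise of 2.43 from 5 to 7 mm (adjusted p = 0.0213, lost without 5 mm replicate 4 at a log2 difference of 2.12 and adjusted p = 0.0642) and of 3.30 from 5 to 8 mm (SE 0.51, adjusted p = 0.00135). LOC107900642 read 10.13, 8.18 and 7.72, then 11.07, 11.07 and 11.22, then 11.29, 11.21 and 11.61 on the probe set that rose, by 2.69 from 5 to 8 mm (SE 0.39, adjusted p = 0.000631). A second probe set of the same gene gave -0.47 and did not pass (adjusted p = 0.186), so the gene has no single direction on this array. The 3 probe sets of LOC107887176 all rose from 5 to 8 mm, by 2.46, 3.13 and 2.20 (adjusted p = 0.0196, 0.03 and 0.0277). From 5 to 7 mm they gave 2.19, 1.79 and 1.90, and only the first was called (adjusted p = 0.043, 0.24 and 0.0645). The second gave a further 1.34 from 7 to 8 mm (adjusted p = 0.723). The first of them read 10.28, 8.61 and 8.31, then 11.20, 11.31 and 11.26, then 11.67, 11.63 and 11.28. Of its probe sets, the first lost the 5 to 8 mm call without 5 mm replicate 3 or 4 or 8 mm replicate 4 or 5 (log2 difference 2.09 to 2.41, adjusted p = 0.061 to 0.0876), as did the second (2.80 to 3.06, adjusted p = 0.0814 to 0.128). In the first step the rise of 2.19 on the first probe set was lost without any array of those sizes except 5 mm replicate 2 (1.82 to 2.22, adjusted p = 0.0593 to 0.128). Anther means of the 3 probe sets were also higher at 8 mm (11.85, 10.52 and 12.04) than at 5 mm (9.89, 8.02 and 10.22). For LOC107900642, on the probe set that rose, they were 10.88 against 8.64, and for LOC107953769 6.61 against 5.60.

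Among probe sets without a symbol whose 5 and 8 mm arrays did not overlap, the largest rises were those of Gra.254.1.S1_s_at and Ghi.6714.1.S1_s_at. Gra.254.1.S1_s_at read 5.99, 2.83 and 2.18 at 5 mm, 8.60, 8.77 and 6.77 at 7 mm, then 9.72, 9.91 and 10.30 at 8 mm, a rise of 6.31 (SE 0.96, adjusted p = 0.00112). Ghi.6714.1.S1_s_at read 6.46, 2.68 and 2.16, then 8.31, 8.46 and 8.85, then 9.50, 9.50 and 10.02, a rise of 5.90 (SE 1.05, adjusted p = 0.0043). The sizes did not overlap in either, which the rule for named genes required of all but 7 against 8 mm. Anthers lay between 2.68 and 4.09. On 5 mm replicate 2 both already stood more than 3 log2 units above the other 5 mm arrays, and on leaf replicate 4 they read 11.15 and 11.36 against 6.22 to 6.82 on the other leaf arrays. The 5 to 7 mm rises of 4.38 and 4.77 (adjusted p = 0.0256 and 0.0257) were less firm. That of Gra.254.1.S1_s_at was lost without 5 mm replicate 3 or 4 or 7 mm replicate 1 or 2 (3.63 to 4.10, adjusted p = 0.052 to 0.0787), and that of Ghi.6714.1.S1_s_at without 5 mm replicate 3 or 4 or 7 mm replicate 2 (3.97 to 4.81, adjusted p = 0.0549 to 0.0795).

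LOC107908968, LOC107909128 and LOC107922335 rose from 5 to 7 mm and were divided among the 8 mm arrays. LOC107908968 read 2.16, 2.50 and 2.16 in 5 mm buds, then 6.47, 6.31 and 6.79 in 7 mm buds, a rise of 4.25 (SE 0.82, adjusted p = 0.0133), and then 7.37, 7.15 and 2.38 at 8 mm. Its 5 to 8 mm difference of 3.36 passed as well (adjusted p = 0.0321), although the sizes overlap. LOC107909128 read 2.16, 3.90 and 2.44, then 6.24, 6.17 and 6.88, then 6.11, 5.81 and 2.46. In both, 8 mm replicate 6 stood at the level of the 5 mm buds, so the larger buds have no common level. The 5 to 7 mm rise of LOC107909128, 3.60 (SE 0.84, adjusted p = 0.0329), was lost without any of the 6 arrays except 5 mm replicate 3 (3.26 to 3.72, adjusted p = 0.0573 to 0.0921). LOC107922335 read 3.11, 6.06 and 4.73, then 7.33, 7.07 and 7.65, then 7.23, 6.95 and 5.67, and its rise of 2.72 (SE 0.67, adjusted p = 0.04) was lost in the same 5 cases (1.95 to 2.86, adjusted p = 0.0672 to 0.149). Over all 129 probe sets that rose from 5 to 7 mm, the median was 4.85 to 5.37 on the 5 mm arrays, 6.96 to 7.11 on the 7 mm arrays and 7.17, 7.02 and 6.16 on 8 mm replicates 4, 5 and 6.

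Falls among genes with a symbol were fewer, and of those in this paragraph LOC107928801 alone held its call with the 9 arrays alone. LOC107928801 fell steadily, reading 8.95, 9.12 and 8.69 at 5 mm, 7.99, 7.69 and 8.34 at 7 mm, then 7.22, 7.51 and 7.21 at 8 mm. The sizes did not overlap, which the rule for named genes required of 5 and 8 mm. It fell by 1.61 from 5 to 8 mm (SE 0.31, adjusted p = 0.00718) and kept the call with the 9 arrays alone (adjusted p = 0.0459), while neither single step passed (adjusted p = 0.13 and 0.609). It also fell in anthers, by 2.57 (adjusted p = 6.06e-06). LOC107916720 read 8.68, 8.40 and 7.66, then 7.65, 7.90 and 6.84, then 6.91, 6.94 and 6.66, a fall of 1.41 (SE 0.29, adjusted p = 0.0118), and lay at 2.71 to 3.33 in anthers. LOC107954320 read 12.47, 11.49 and 11.47, then 10.72, 10.50 and 9.85, then 10.08, 9.96 and 10.60, a difference of -1.45 from 5 to 7 mm (SE 0.27, adjusted p = 0.0101) and -1.60 from 5 to 8 mm (adjusted p = 0.00299). LOC107904848 read 9.61, 8.69 and 7.83, then 7.56, 7.29 and 7.61, then 7.73, 7.86 and 7.48 in buds of 5, 7 and 8 mm. Its fall of 1.23 in the first step (SE 0.29, adjusted p = 0.033) shrank to a difference of -0.78 without 5 mm replicate 2 (adjusted p = 0.0877) and lost its call without 7 mm replicate 1 or 2 as well (-1.26 and -1.13, adjusted p = 0.0591 and 0.0903). A second probe set of that gene differed by 0.44 the other way (adjusted p = 0.898).

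Among the falls without a symbol whose 5 and 8 mm arrays did not overlap, GhiAffx.40045.1.A1_s_at and Ghi.5870.1.A1_at fell most from 5 to 8 mm. GhiAffx.40045.1.A1_s_at read 10.06, 10.79 and 10.26, then 8.47, 8.28 and 8.90, then 6.85, 6.69 and 8.87, a fall of 2.90 (SE 0.47, adjusted p = 0.00213), whereas in anthers it rose by 2.59. Ghi.5870.1.A1_at read 9.05, 7.18 and 7.32, then 7.36, 7.46 and 8.15, then 5.48, 5.10 and 4.69. Its fall of 2.76 (SE 0.71, adjusted p = 0.0412) was lost without any of the 6 arrays except 5 mm replicate 3 (-3.03 to -2.16, adjusted p = 0.0581 to 0.144). From 5 to 7 mm GhiAffx.29653.1.S1_at read 7.70, 6.62 and 6.64, then 5.48, 4.83 and 2.18, and its fall of 2.82 (SE 0.57, adjusted p = 0.0167) was -1.83 without 7 mm replicate 3 and was lost without 5 mm replicate 2 (-2.46, adjusted p = 0.0528). Ghi.6762.1.S1_x_at read 7.92, 7.01 and 6.95, then 5.81, 4.70 and 4.12, a fall of 2.41 (SE 0.52, adjusted p = 0.0242) that was lost without 5 mm replicate 2, 7 mm replicate 2 or 7 mm replicate 3 (-2.32 to -2.04, adjusted p = 0.0539 to 0.0743).

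The falls from 7 to 8 mm had a pattern of their own. Gra.1559.1.A1_at read 8.80, 8.67 and 9.27 in 7 mm and 3.04, 3.10 and 3.10 in 8 mm flower parts, a difference of -5.83 (SE 1.05, adjusted p = 0.0182). Ghi.8524.1.S1_at read 8.79, 8.86 and 8.85, then 2.98, 2.98 and 3.48, a difference of -5.68 (SE 0.97, adjusted p = 0.0136). At 5 mm the first read 3.04, 9.87 and 7.81 and the second 3.69, 10.002 and 5.20, so 5 mm replicate 2 resembled the 8 mm buds and replicate 3 the 7 mm buds. The call of Gra.1559.1.A1_at was lost without any of the 6 arrays except 8 mm replicate 6 (-5.96 to -5.65, adjusted p = 0.0533 to 0.094), and that of Ghi.8524.1.S1_at without 8 mm replicate 4 or 5 (-5.60, adjusted p = 0.0545 and 0.084). The same holds over all 31 falls of this step, whose median was 3.54, 6.05 and 5.02 on 5 mm replicates 2, 3 and 4, 6.20 to 6.55 on the 7 mm arrays and 3.04 to 3.24 on the 8 mm arrays. The means of the 5 mm arrays did not enter this comparison. Seedling lay at least 1 log2 unit above the 8 mm flower parts in 20 of the 31 and leaf in 17, against 15.1% and 16.4% of all tested. The 8 mm flower parts arrays chose these probe sets and also enter this comparison, so nothing is read from it. Of the 44 probe sets called in this step, 32 had an identical reading on 3 or more arrays, a larger share than the 31.4% of all tested. The numbers were 60 of 170 from 5 to 7 mm and 92 of 275 from 5 to 8 mm, close to that share. With such probe sets left out, 1 rise and 7 falls were called from 7 to 8 mm.

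Ghi.8528.1.A1_s_at was the only rise from 7 to 8 mm among the 13 that was also abundant in anthers by at least 3 log2 units at 8 mm. It read 3.60, 2.57 and 2.21, then 3.73, 3.49 and 5.16, then 6.51, 6.22 and 5.74 in flower parts, and 12.31, 12.22 and 13.33 in 7 mm and 13.41, 13.67 and 14.14 in 8 mm anthers. It rose by 2.03 from 7 to 8 mm (SE 0.40, adjusted p = 0.0309, lost without 7 mm replicate 1 or 2 or 8 mm replicate 4 or 5 at 1.71 to 2.00 and adjusted p = 0.116 to 0.143) and by 3.36 from 5 to 8 mm (adjusted p = 8.12e-05). It is a member of the late anther list described above, and the part of anther tissue in its rise was not tested.

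More probe sets changed with bud size in anthers than in flower parts. In anthers 1840 probe sets (10.4%) changed from 5 to 7 mm, 1014 (5.74%, of which 2.72% were rises and 3.02% falls) from 7 to 8 mm and 2307 (13.1%) from 5 to 8 mm. The difference between the steps of the tissues passed its own test for 1366 probe sets (7.73%) from 5 to 7 mm, 705 (3.99%) from 7 to 8 mm and 1911 (10.8%) from 5 to 8 mm. The anther step was the higher one in 728, 436 and 1107 of these (4.12%, 2.47% and 6.27% of those tested) and the lower one in 638, 269 and 804 (3.61%, 1.52% and 4.55%). With spike-in scaling it was the higher one in 126 of 646, 36 of 85 and 170 of 1268, so this split depends on the scaling.

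The steps of the 2 tissues were set side by side for the probe sets called from 5 to 8 mm in flower parts. Of the 160 that rose in flower parts, 39 (24.4%) also rose and 6 fell in anthers, against 6.71% and 6.35% of all tested, and 109 (68.1%) moved by less than 1 log2 unit there. Of the 115 that fell, 24 (20.9%) also fell and 10 rose in anthers, and 80 (69.6%) moved by less than 1. Of all tested, 84.7% moved by less than 1 log2 unit in anthers. These counts use separate arrays for each tissue, although the tests share 1 estimate of the spread. Of the 129 that rose from 5 to 7 mm, 15 (11.6%) rose and 6 fell in anthers, against 5.86% and 4.55% of all tested. At 8 mm, 56 of the 160 that rose stood at least 3 log2 units above anthers and 3 at least that far below them, against 4.09% and 1.16% of all tested. The 8 mm flower parts arrays enter both sides of that comparison.

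**Figure D5:**
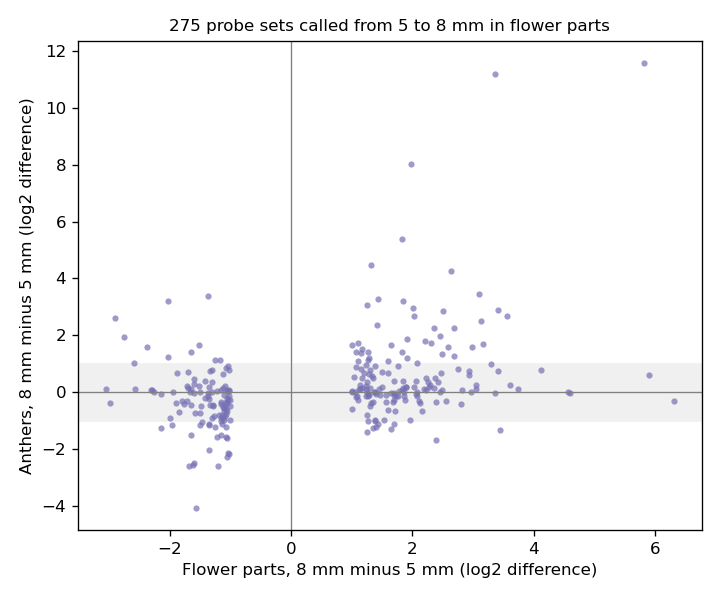
Log2 difference from 5 to 8 mm in flower parts (x axis) and in anthers (y axis) for the 275 probe sets called in flower parts, with the band of less than 1 log2 unit in anthers shaded. Of the 160 on the right 109 lie in the band, as do 80 of the 115 on the left and 84.7% of all probe sets tested.

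LOC107914052 differed between the tissues, with an anther step of -0.02 from 5 to 8 mm against 4.59 in flower parts (difference -4.61, SE 0.37, adjusted p = 2.62e-07). LOC107962977 rose by 3.41 in flower parts against 0.73 in anthers (difference -2.68, adjusted p = 0.00282). LOC107945007 read 8.65, 9.72 and 9.62, then 10.59, 10.55 and 10.33, then 11.15, 11.13 and 10.82 in flower parts, a rise of 1.70 (SE 0.42, adjusted p = 0.0354), against -1.11 in anthers (difference -2.81, adjusted p = 0.00397). LOC107954320 went the other way, falling by 1.60 in flower parts and differing by 0.27 in anthers (difference 1.87, adjusted p = 0.00292).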

How the data were processed

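The deposited values are GCRMA values on the log2 scale, made by the authors per the submitters' processing notes. No source used here gives its version or options. The method removes nonspecific signal predicted from each probe's bases, quantile-normalizes the arrays and merges the probes of a set. No further normalization was applied. The lowest value of the table, 2.16, made up 26.2% of all values, so differences from it are compressed.

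The 155 control probe sets of 24132 were left out. Testing required 3 or more of the 24 arrays above background, the 95th percentile of 69 reporter and tag controls whose targets were not added per the labels. The 8 group means were estimated by limma 3.58.1 (R 4.3.3) from all 24 arrays, because the groups then share a spread. Two-sided moderated tests, the F test among sizes and the tests of tissue differences were adjusted by Benjamini-Hochberg. Folds against a group with no array above background are lower bounds. On simulated data the fit called 78.3%, 85.5% and 100% of planted 5 to 7 mm changes of 1.5, 2 and 3 log2 units, with 8 false calls. The simulation gave every group the same spread and held no outlying arrays. It therefore cannot test the fit for the unequal spreads and outlying arrays of these data. Figures were drawn with matplotlib 3.10.9.

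The platform annotation named 743 probe sets, 697 with 1 symbol and 46 with several. All 697 matched the RefSeq gene table of assembly Gossypium_hirsutum_v2.1. No source used here names the build behind the annotation, so no coordinates are printed, and no sequences were used. Named were, among calls whose groups did not overlap, up to 10 rises and 10 falls with 1 symbol and 2 and 2 without a symbol per comparison. For tissue differences, up to 3 in each direction that were also called in flower parts were named. Tissue lists took probe sets whose lowest array in one tissue exceeded the highest in the other by at least 4 log2 units. The members, lists and tests were chosen with earlier results of these data known.

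The deviations of same-numbered arrays of different groups correlated at r from -0.23 to 0.52 (33 pairs, 7 over 0.1). Replicate numbers were not treated as pairs, and a fit with them as a block is given below. Alternatives covered the filter, floor, scaling, variance prior, array weights, arrays in the fit, thresholds, probe set types and single arrays left out. No slide or scan date was examined, because the table gives none.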

Additional observations from a re-analysis of the deposited data

Results flagged for a closer look

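The steps between bud sizes differed between anthers and flower parts, by a test of the difference itself, for 1366 probe sets from 5 to 7 mm, 705 from 7 to 8 mm and 1911 from 5 to 8 mm. Among the genes named for this, the anther step minus the flower parts step from 5 to 7 mm was 1.63 for LOC107954320, 1.55 for LOC107904848, -5.33 for LOC107909128, -3.74 for LOC107908968 and -2.81 for LOC107914052. The value of LOC107908968 passed narrowly (adjusted p = 0.0449 in limma) and lost its call without any of 11 of the 12 arrays compared, all but 7 mm anther replicate 3 (-3.85 to -3.44, adjusted p = 0.0552 to 0.104). That of LOC107904848 was lost without 5 mm anther replicate 3 (1.46, adjusted p = 0.0545). From 7 to 8 mm the difference was -1.80 for LOC107914052. From 5 to 8 mm it was 1.87 for LOC107954320, -4.61 for LOC107914052, -2.81 for LOC107945007 and -2.68 for LOC107962977.

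One reporter control, whose target was not added per the labels, had signal on every flower parts array, with a mean of 14.1 and a range of 13.9 to 14.4. The next highest reporter or tag control averaged 2.44.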

How the results depend on the processing

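No named log2 difference changed sign in any of 1097 values over 50 results, and 218 values lost their call. The lack of sign changes was largely fixed in advance and is not read as stability. Flower parts results were named among calls without overlap, whose sign leaving out arrays cannot reverse. Other thresholds, another variance prior and the fit of flower parts alone keep the log2 difference itself. The counts of called probe sets were not stable, and 61 of 171 alternative counts moved by over 1.5 times. In the order 5 to 7, 7 to 8 and 5 to 8 mm, then any size, flower parts alone gave 9, 3, 25 and 22, an adjusted p under 0.01 gave 46, 14, 114 and 154, and array weights, which nearly removed 7 mm replicate 1, gave 376, 132, 924 and 3367. Spike-in scaling gave 59, 84 and 143 for 5 to 7 mm, 5 to 8 mm and any size. The adjusted p alone gave 374 from 5 to 7 mm and 576 from 5 to 8 mm. Without probe sets that may bind related transcripts the count was 105 from 5 to 7 mm and 363 for any size, with fewer tested. Leaving out the 3 arrays that stood apart gave 319, 85, 669 and 1332, and the 6 remaining flower parts arrays alone gave 106 and 7 in the first pair of steps. The last of these fits, the exclusion of probe sets with equal values (8 from 7 to 8 mm) and the anther arrays left out in turn were chosen after seeing the data. With 1 array of the compared sizes left out at a time the counts ran from 149 to 403, 15 to 46, 110 to 490 and 258 to 1006. The 5 mm arrays share only the estimate of spread with the 7 to 8 mm comparison, yet its count was 85 without 5 mm replicate 2 and 66 without replicate 3. The extremes for any size were without 8 mm replicate 5 and 7 mm replicate 3. It was 309 without 8 mm replicate 4 and 871 without 8 mm replicate 6.

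For the difference between tissues, in the same order of steps, spike-in scaling gave 646, 85 and 1268, an adjusted p under 0.01 gave 677, 295 and 1054, and leaving out related-transcript probe sets gave 749, 378 and 1039. Array weights gave 1213 and 2960 for the later pair, and the 18 anther and flower parts arrays alone gave 415 from 7 to 8 mm. With 1 array of the compared groups left out the counts ran from 885 to 2129, 401 to 1068 and 1452 to 2289. The first range was set by 5 mm anther replicates 3 and 1, and the second by 7 mm anther replicate 2 and 7 mm flower parts replicate 2. Without 8 mm flower parts replicate 5 the 7 to 8 mm count was 469.

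The fit with the replicate block called 83, 1 and 53 probe sets in flower parts, 82 for any size, and 453 and 1214 for the tissue difference from 7 to 8 and 5 to 8 mm. The deviations of same-numbered flower parts arrays correlated at r from -0.16 to 0.13 over 3 pairs. So few pairs cannot show whether same-numbered samples share more than a number. The causes of these shifts were not tested. The 3 arrays per group limit the precision, as does signal close to background.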
